A study of Mus musculus with 14 samples.

Results

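Tumours of mice given MYCi975 alone were compared directly with tumours of mice given TMP195 alone. The comparison took all libraries of these groups, 4 with MYCi975 and 3 with TMP195, which is 7 of the 14 in the series. Mice carried tumours of LLC1, a Lewis lung carcinoma line of the mouse, and received MYCi975 or TMP195 at 50 mg/kg over 16 days. The others are 3 libraries from mice given both compounds, at doses the sources do not state, and 4 from mice given DMSO as vehicle. RNA was taken from an enriched tumour fraction per the protocol, while the design text speaks of a bulk tumour suspension. The sources used here give no strain, sex or age of the hosts. Nor do they say that every library is a separate animal, so the tests rest on library-to-library spread that may be partly technical. The design asks which transcripts the treatments change in the tumour, and the series title names mitochondrial dysfunction.

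MYC is a transcription factor that pairs with MAX and binds E-box sequences near genes for ribosome assembly, nucleotide synthesis and cell division. MYCi975 is a small molecule that binds MYC and interferes with its pairing with MAX. The class IIa group of histone deacetylases, formed by HDAC4, HDAC5, HDAC7 and HDAC9, acts mainly by corepressing MEF2 transcription factors, and TMP195 occupies the catalytic pocket of these enzymes. Both act on proteins, and protein activity was not measured. The values are the authors' log2-scale, variance-stabilised expression levels, with a lowest value of 4.047 shared by all libraries. A difference of 1 is close to a doubling for well expressed genes and understates the fold of genes near the lowest value.

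No gene passed the test between the single agents. With limma's moderated test on all 14 libraries and Benjamini-Hochberg adjustment, 0 of 13711 genes (0%) had an adjusted p under 0.05, and the smallest adjusted p was 0.998. An unadjusted p under 0.05 was reached by 612 genes (4.46%), of which 329 were higher with MYCi975 (2.4%) and 283 lower (2.06%), where 5% of the genes tested is 686. The median 95% interval, unadjusted for the number of genes, reached 0.39 log2 units to either side of the estimate. This width is not a limit of detection. A smaller difference leaves 0 within such an interval, and larger ones also failed the adjusted threshold. Oxnad1, for example, differed by 1.001 and did not pass. Without MYCi975 replicate 2 there were again 0 called genes (0%), with a smallest adjusted p of 0.0901, and 733 at an unadjusted p under 0.05 (5.35%), 353 higher (2.57%) and 380 lower (2.77%). Without TMP195 replicate 3 that count was 1049, and without TMP195 replicate 2 it was 342. Of the 612 genes, 356 were also among the 733 with the same direction, which is 58.2% of the 612 and 48.6% of the 733.

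**Figure D1:**
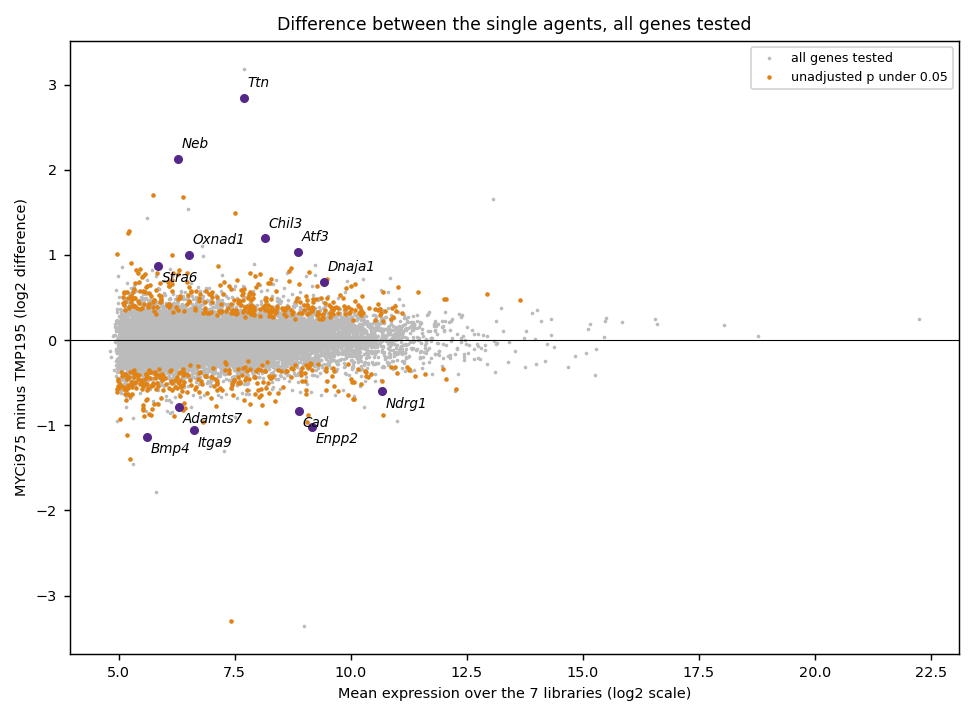
Each point is 1 of the 13711 genes tested, with its mean over the 7 libraries on the x axis (log2 scale) and MYCi975 minus TMP195 on the y axis (log2 difference). Orange marks the 612 genes at an unadjusted p under 0.05, purple the labelled genes, and most differences lie close to 0.

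MYCi975 replicate 2 stood apart from the other 6 libraries. On the first principal component of the 7 libraries, which held 40.9% of their variance, it scored -48.1, against -3.73 to 18.9 for the other MYCi975 libraries and -12.7 to 15.0 for the TMP195 libraries. It had 2954 genes at the lowest value, while the other MYCi975 libraries had 1803 to 1981 and the TMP195 libraries 1056 to 2430. Ptprc, the gene of the leukocyte surface phosphatase CD45, was 10.87, 12.07, 10.09 and 10.35 in MYCi975 replicates 1 to 4, against 10.46, 10.62 and 11.45 in TMP195 replicates 1 to 3. The group means of Ptprc were 10.85 ± 0.88 with MYCi975 (SD, n = 4) and 10.84 ± 0.53 with TMP195 (SD, n = 3). Many of the values below are therefore also given without this library. As for the tissue itself, the mesenchymal gene Vim averaged 14.34 with MYCi975 and 14.43 with TMP195, and the simple epithelial keratin gene Krt8 averaged 8.12 with MYCi975 and 8.09 with TMP195. Epcam, an epithelial surface marker, reached at most 5.30 with MYCi975 and 4.57 with TMP195 and was not among the genes tested.

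No transcript of the drug targets passed the adjusted threshold, and their 95% intervals held differences in either direction. Myc was 8.97, 9.27, 9.41 and 8.86 in MYCi975 replicates 1 to 4, against 9, 8.96 and 9.15 in TMP195 replicates 1 to 3. The groups overlap, and the difference was 0.09 (95% interval -0.24 to 0.42). Max, the partner of MYC, was 8.45, 8.70, 8.53 and 8.20 with MYCi975 and 8.01, 7.96 and 8.37 with TMP195. Its difference of 0.36 had an unadjusted limma p of 0.0308, and 0.0856 without MYCi975 replicate 2. Among the 11 tested of 14 listed genes of the MYC network 7 were higher and 4 lower with MYCi975, with a median difference of 0.07, and -0.02 without MYCi975 replicate 2.

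For the deacetylases, Hdac7 differed by -0.21 (95% interval -0.47 to 0.05), Hdac4 by -0.17 (-0.54 to 0.21), Hdac5 by -0.14 (-0.44 to 0.16) and Hdac9 by 0.26 (-0.22 to 0.74). Hdac5 values were narrow with MYCi975, at 8.18, 8.22, 8.23 and 8.25, and broader with TMP195, at 8.63, 8.04 and 8.42. The MEF2 factor genes Mef2a, Mef2c and Mef2d differed by 0.17, 0.36 and 0.29, and by 0.02, 0.07 and 0.12 without MYCi975 replicate 2. None of these 7 genes had an unadjusted p under 0.05 in either fit.

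The genes with the smallest p are described next, 10 in each direction, as a description since none passed. Their differences ran from 0.46 to 1.19 log2 units in size, the groups did not overlap in 17 of the 20, against 4.3% of all genes tested (2.47% higher and 1.84% lower), and the choice by p favours such genes. In 18 of the 20 the vehicle mean lay between the means of both drugs. The choice by p favours this too, and its share over all genes tested was not counted. Exact permutation over the 7 libraries (35 splits, two-sided) gave the smallest p that 4 against 3 libraries allow, 0.0286, for 11 of the 20. The genes were chosen by p on these same libraries, so this is not a separate check. The share of all genes tested that reach this p was not counted.

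Among genes with higher values under MYCi975, Oxnad1, which encodes a protein with an oxidoreductase NAD-binding domain, had the smallest p. It was 6.99, 6.46, 6.94 and 7.34 in MYCi975 replicates 1 to 4, against 5.89, 6.08 and 5.82 in TMP195 replicates 1 to 3. Every MYCi975 library lay above every TMP195 library, and the vehicle mean of 6.32 lay between. The difference was 1.001 (95% interval 0.59 to 1.41) with a limma adjusted p of 0.998, and 1.16 with an adjusted p of 0.0901 without MYCi975 replicate 2.

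Chil3 encodes the chitinase-like protein Ym1 of mouse myeloid cells. It was 8.77, 9.55, 8.20 and 8.11 with MYCi975, against 7.11, 7.38 and 7.91 with TMP195, with vehicle at 7.85 on average. The groups did not overlap, the highest value came from MYCi975 replicate 2, and the difference was 1.19 (0.90 without that library). With Ptprc as a covariate Chil3 was the 1 gene called by limma, with a difference of 1.19 and an adjusted p of 0.0301.

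Stra6, the cell-surface receptor for retinol-binding protein, was 6.19, 6.49, 6.18 and 6.03 with MYCi975 and 5.25, 5.76 and 5.03 with TMP195, a difference of 0.88 without overlap of the groups. Terf1, a telomere-binding subunit of shelterin, was 7.72, 7.33, 7.76 and 7.87 with MYCi975 and 6.998, 7.08 and 7.11 with TMP195. Its difference was 0.60, and 0.72 without MYCi975 replicate 2, which was the lowest library of its group. Smarcad1, a chromatin remodeller, was 8.92, 9.30, 9.01 and 8.88 with MYCi975 and 8.56, 8.57 and 8.56 with TMP195, a difference of 0.46. Neither gene had overlapping groups, and the TMP195 libraries were close together in both.

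The other 5 genes on this side were Iws1, Zc3h4, Denr, Pik3r3 and Zfp239. Iws1, a partner of the elongation factor SPT6, differed by 0.80, and Zc3h4, which restrains noncoding transcription, by 0.85. In both, TMP195 replicate 3 reached into the range of MYCi975 (9.10 for Iws1 and 8.73 for Zc3h4). Denr, which acts in translation re-initiation, differed by 0.67, again with TMP195 replicate 3 at the level of the lowest MYCi975 library. Pik3r3, a regulatory subunit of phosphoinositide 3-kinase, differed by 0.68 and the zinc finger gene Zfp239 by 0.68.

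Among genes with lower values under MYCi975, Bmp4 had the greatest difference of the 10. This gene, which encodes a ligand of the bone morphogenetic protein family, was at 5.57, 4.90, 4.93 and 5.09 with MYCi975, against 6.56, 6.35 and 5.88 with TMP195. The groups did not overlap, and the vehicle mean of 5.09 was close to that of MYCi975 (5.12). The difference was -1.14 (95% interval -1.70 to -0.58), and -1.07 without MYCi975 replicate 2.

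Rnf144b, an E3 ubiquitin ligase gene, was 5.42, 4.81, 5.26 and 5.31 with MYCi975, against 6.10, 5.85 and 5.95 with TMP195, a difference of -0.77. Adamts7, a secreted metalloprotease gene, was 6.13, 6.08, 5.98 and 5.63 with MYCi975, against 6.85, 6.99 and 6.38 with TMP195, a difference of -0.78. In both genes all MYCi975 libraries lay below all TMP195 libraries. Taf6l, a subunit of the SAGA coactivator, was 5.61, 5.63, 5.57 and 5.66 with MYCi975, against 6.27, 6.18 and 6.02 with TMP195. Its vehicle mean of 6.24 lay beyond that of TMP195, the reverse of the pattern of Bmp4.

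The rest of this side spans membrane and matrix functions. Atp6v0a2, a subunit of the proton pump of acidic organelles, differed by -0.76, and Slc48a1, a haem transporter gene, by -0.59. Ly75, the endocytic receptor DEC-205 of dendritic cells, differed by -0.62, and Ndst1, an enzyme of heparan sulphate synthesis, by -0.59. Sntb1, a syntrophin gene, differed by -0.74 and Gria3, a glutamate receptor subunit gene, by -0.82. Without MYCi975 replicate 2, Itga9 (-1.29), an integrin subunit gene, and Mfap3l (-0.76) were among the 5 smallest p on this side, and Sike1 (0.94) and Fbxo8 (0.93) on the other. Their differences were -1.06, -0.57, 0.67 and 0.56 with all libraries.

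**Figure D2:**
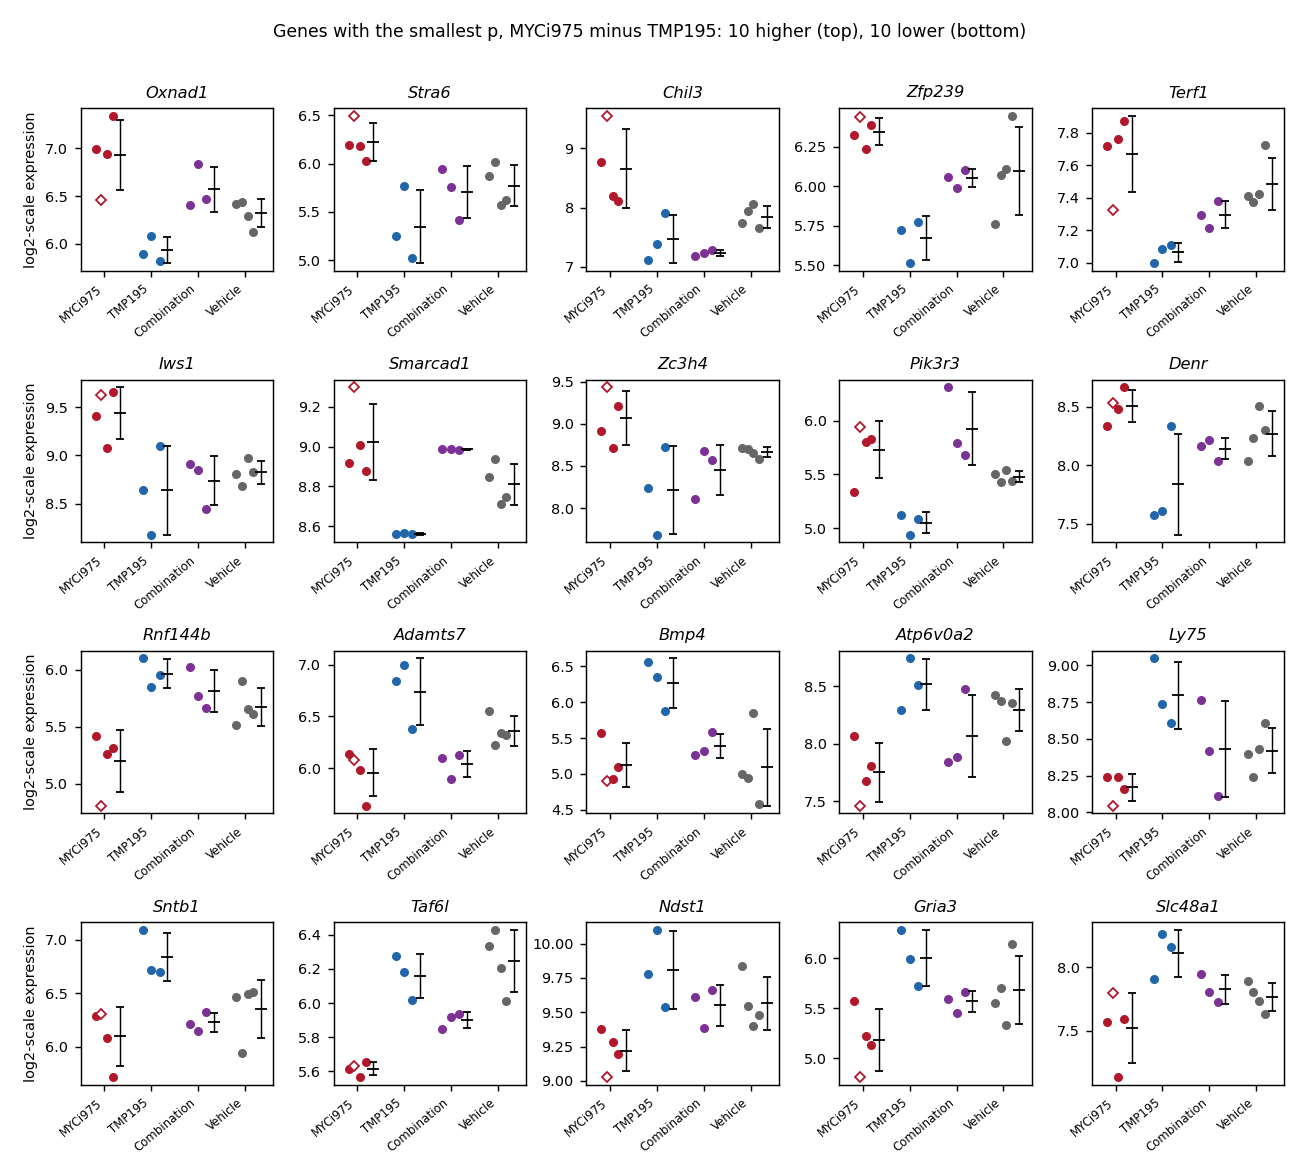
Log2-scale expression of the 20 genes with the smallest p in every library, 10 higher with MYCi975 in the upper rows and 10 lower in the lower rows. Points are libraries, the open diamond is MYCi975 replicate 2, and bars give the mean ± SD of MYCi975 (n = 4), TMP195 (n = 3), combination (n = 3) and vehicle (n = 4). Vehicle lies between both drugs in 18 of the 20, which the choice by p favours.

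Cytosolic heat shock genes, the chaperones induced by misfolded protein through HSF1, had higher values with MYCi975. Of 14 tested members (16 listed) 13 were higher, with a median difference of 0.34, where 50.7% of all genes tested were higher and their median was 0.0031. None was called, and 5 had an unadjusted p under 0.05, all of them higher (background 2.4%). The mean level of the list was 10.08, 9.94, 10.04 and 9.97 in MYCi975 replicates 1 to 4, against 9.62, 9.46 and 9.91 in TMP195 replicates 1 to 3. The MYCi975 libraries lay above all TMP195 libraries, narrowly above TMP195 replicate 3, and vehicle ran from 9.66 to 9.87.

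The co-chaperone gene Dnaja1 was 9.82, 9.82, 9.54 and 9.72 with MYCi975 and 9.05, 8.64 and 9.43 with TMP195, a difference of 0.69. The groups did not overlap, and TMP195 replicate 3 was the highest of its group. Hsph1, a nucleotide exchange factor of the HSP70 machine, differed by 0.63, and by 0.79 without MYCi975 replicate 2, whose value of 9.78 was the lowest of its group. Hsp90aa1, the inducible HSP90 gene, differed by 0.54 and the co-chaperone gene Bag3 by 0.33. Hspa1a and Hspa1b, inducible HSP70 genes, differed by 0.63 and 0.64, and as near-identical copies they are uncertain as single genes. The median was 0.34 without MYCi975 replicate 2, with 13 of 14 still higher. The count at an unadjusted p under 0.05 was 1 without TMP195 replicate 2, 2 without TMP195 replicate 1 and 3 without MYCi975 replicate 1. It was 7 without TMP195 replicate 3. The share over all genes tested also varied, at 2.49%, 3.56%, 4.17% and 7.65% in these fits, in either direction.

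Upstream sequence is shown for the heat shock genes Dnaja1 and Hspa1b, in which the core of the heat shock element was found, and for Set, which holds an E-box and is described with the MYC-responsive genes. Each run is the 250 bases before a RefSeq gene start on GRCm38.p6, 5′ to 3′ on the gene's strand. Dnaja1 had 3 RefSeq promoters, Set 2 and Hspa1b 1, and the promoter shown was chosen for the most matches to the marked motif. The capitals mark GAANNTTC in the heat shock genes and CACGTG in Set. The run of Set also holds a GAANNTTC match, left in lower case. Dnaja1 lies at chr4:40722218-40722467 (plus strand), Hspa1b at chr17:34959239-34959488 (minus strand) and Set at chr2:30061746-30061995 (plus strand).
Dnaja1: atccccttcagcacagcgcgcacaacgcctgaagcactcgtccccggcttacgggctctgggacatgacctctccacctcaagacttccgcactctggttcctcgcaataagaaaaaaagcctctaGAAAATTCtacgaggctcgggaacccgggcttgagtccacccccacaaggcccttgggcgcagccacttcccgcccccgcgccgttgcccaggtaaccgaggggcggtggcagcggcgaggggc
Hspa1b: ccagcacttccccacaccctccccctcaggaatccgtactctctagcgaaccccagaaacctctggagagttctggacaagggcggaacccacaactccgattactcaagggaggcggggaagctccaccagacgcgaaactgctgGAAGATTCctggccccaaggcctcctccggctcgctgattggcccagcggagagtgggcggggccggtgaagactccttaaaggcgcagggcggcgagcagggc
Set: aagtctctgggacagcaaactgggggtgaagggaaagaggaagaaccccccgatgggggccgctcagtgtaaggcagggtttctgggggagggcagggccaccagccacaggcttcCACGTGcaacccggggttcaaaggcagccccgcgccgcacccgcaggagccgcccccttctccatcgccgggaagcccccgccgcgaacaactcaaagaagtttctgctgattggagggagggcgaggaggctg

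These motifs were counted on both strands in the same 250-base window of every promoter, for the 9565 tested genes with a RefSeq promoter. A gene counted as holding a motif where any of its promoters held it. GAANNTTC was present for 3 of 10 heat shock genes with a promoter (Dnaja1, Hspa1a and Hspa1b) and for 6.15% of all 9565. Hspa1a and Hspa1b are near-identical copies and may not be separate observations. The motif was also present for 2 of 13 MEF2-responsive genes (15.4%), 2 of 17 immediate early genes (11.8%) and 4 of 52 MYC-responsive genes (7.69%). CACGTG was present for 13 of 52 MYC-responsive genes (25%) and for 9.75% of all. It was also present for 3 of 13 MEF2-responsive genes (23.1%) and 5 of 17 immediate early genes (29.4%), so its share was not particular to the MYC-responsive list. Among genes at an unadjusted p under 0.05, CACGTG was present for 5.86% of those higher with MYCi975 and 9.42% of those lower. A match describes the letters in these windows and not binding.

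MYC-responsive genes, which serve ribosome assembly, nucleotide synthesis and translation, had slightly higher values with MYCi975 than with TMP195. Of 60 members 41 were higher and 19 lower, with a median difference of 0.09, and none was called. At an unadjusted p under 0.05 there were 10 higher (background 2.4%) and 1 lower (background 2.06%). List means were 8.90, 8.87, 9.16 and 9.03 with MYCi975, against 8.85, 8.85 and 8.95 with TMP195, so the groups overlap, and vehicle ran from 8.89 to 9.12.

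The splicing factor gene Srsf1 was 10.47, 10.33, 10.31 and 10.73 with MYCi975 and 9.85, 9.71 and 10.28 with TMP195, a difference of 0.51 without overlap. Set, a histone chaperone gene whose upstream E-box is printed above, was 11.43, 12.16, 11.49 and 11.64 with MYCi975 and 10.91, 10.93 and 11.50 with TMP195, a difference of 0.57 with overlap at TMP195 replicate 3. Fbl, the methyltransferase that modifies ribosomal RNA, differed by 0.75, Rrs1, a ribosome assembly factor gene, by 0.38, and Cbx3, a heterochromatin protein gene, by 0.35. Cad is the enzyme that starts pyrimidine synthesis and a well-known MYC target. It was the 1 member lower at an unadjusted p under 0.05, at 8.86, 7.81, 8.76 and 8.65 with MYCi975, against 9.68, 9.55 and 8.82 with TMP195, a difference of -0.83. MYCi975 replicate 2 was the lowest, and the groups overlap at TMP195 replicate 3. The list's median was 0.12 without MYCi975 replicate 2 and 0.03 without MYCi975 replicate 3. Its count of higher members at an unadjusted p under 0.05 was 5 without TMP195 replicate 1 and 3 without TMP195 replicate 2. Over all genes tested 3.56% and 2.49% had such a p in these fits, in either direction.

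Cell cycle genes had a median difference of 0.09, with 33 of 47 higher, and 0.15 with 39 of 47 higher without MYCi975 replicate 2. Without MYCi975 replicate 3 the median was -0.01 and 22 of 47 were higher. Mcm2, a subunit of the replicative helicase, differed by 0.51, Rrm2, a subunit of ribonucleotide reductase, by 0.35, and Bub1, a mitotic checkpoint kinase gene, by -0.36. With all libraries 2 members were higher (background 2.4%) and 1 lower (background 2.06%) at an unadjusted p under 0.05. Without MYCi975 replicate 2 there were 7 higher (background 2.57%), among them Ccne2, a cyclin of S phase entry (0.61).

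Glycolysis genes had lower values with MYCi975. Of 20 members 16 were lower, with a median of -0.18, and 2 had an unadjusted p under 0.05, both lower (background 2.06%). Gpi1, glucose-6-phosphate isomerase, was 10.99, 11.22, 10.98 and 11.25 with MYCi975, against 11.49, 11.39 and 11.50 with TMP195, a difference of -0.35. The other was the aldolase gene Aldoa, which differed by -0.32, also without overlap of the groups. Gapdh differed by -0.20, Pgk1 by -0.27 and the glucose transporter gene Slc2a1 by -0.27.

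By library, the glycolysis list mean was 9.81, 10.09, 9.72 and 9.71 with MYCi975, against 9.96, 9.94 and 9.95 with TMP195. MYCi975 replicate 2 lay above the TMP195 libraries and the other MYCi975 libraries below them, with vehicle from 9.70 to 9.84. Without replicate 2 all 20 members were lower, with a median of -0.16, and 4 had an unadjusted p under 0.05 (background 2.77%). That count was 0 without MYCi975 replicate 1 or 3, 1 without TMP195 replicate 1 and 3 without TMP195 replicate 3. Over all genes tested 4.17%, 5.62%, 3.56% and 7.65% had such a p in these fits, in either direction.

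**Figure D3:**
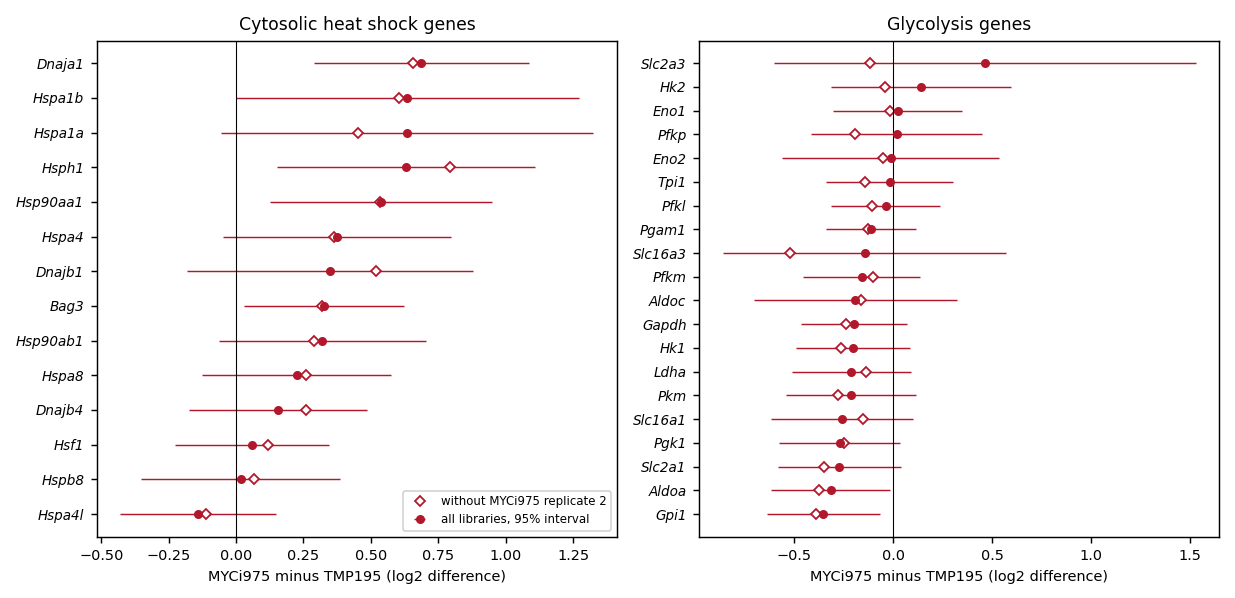
MYCi975 minus TMP195 (log2 difference, x axis) for each tested member of the heat shock list (left) and the glycolysis list (right). Filled points are estimates from all libraries with their 95% interval, and open diamonds are estimates without MYCi975 replicate 2. Of 14 heat shock genes 13 lie above 0, and of 20 glycolysis genes 16 lie below 0.

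Hypoxia-induced genes leaned the same way, with 18 of 24 lower and a median of -0.09. List means ran from 8.49 to 8.82 with MYCi975, from 8.61 to 8.90 with TMP195 and from 8.41 to 8.62 with vehicle. Ndrg1, a hypoxia and stress response gene, was 10.47, 10.54, 10.06 and 10.54 with MYCi975, against 11.28, 11.16 and 10.58 with TMP195, a difference of -0.60 without overlap. The vehicle mean of Ndrg1 was 10.44, close to that of MYCi975 (10.40). Lox, which cross-links collagen, differed by 0.58. Mxi1, a MAX partner that opposes MYC and is induced by hypoxia, differed by -0.23, and by -0.34 without MYCi975 replicate 2. Without MYCi975 replicate 3, 12 of the 24 were lower and the median was -0.02, and without TMP195 replicate 1 it was also -0.02.

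Antioxidant genes under NRF2 control had a median of -0.15, with 14 of 18 lower. List means ran from 8.37 to 8.75 with MYCi975, from 8.60 to 8.74 with TMP195 and from 8.32 to 8.68 with vehicle. Gclm, the modifier subunit of glutamate-cysteine ligase, was 7.39, 7.18, 7.97 and 8.07 with MYCi975 and 8.20, 8.70 and 7.96 with TMP195, a difference of -0.63 with overlap at TMP195 replicate 3. The vehicle mean of Gclm was 7.29, below the means of both drugs. Me1, malic enzyme, differed by -0.37 and Nqo1, a quinone reductase gene, by -0.36, both without overlap of the groups. Without MYCi975 replicate 2 the median was -0.22, Srxn1, which repairs peroxiredoxins, differed by -0.36 and the haem oxygenase gene Hmox1 by -0.52. The median was -0.06 without MYCi975 replicate 4, and -0.07 without MYCi975 replicate 3 or TMP195 replicate 3. At an unadjusted p under 0.05, 2 members were lower with all libraries (background 2.06%) and 3 without MYCi975 replicate 2 (background 2.77%). There was 1 without TMP195 replicate 3, and 0 without MYCi975 replicate 1 or TMP195 replicate 2. Over all genes tested 7.65%, 4.17% and 2.49% had such a p in these last fits, in either direction.

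Genes of mitochondrial respiration, named in the series title, differed little between the single agents. Complex I had a median of 0.01 (19 of 36 higher), complexes II to V 0.01 (23 of 39 higher), the tricarboxylic acid cycle -0.01 (9 of 21 higher) and mitochondrial ribosomal proteins 0.05 (49 of 77 higher). Over these 4 lists 4 entries were higher and 1 lower at an unadjusted p under 0.05, a smaller share than the 4.46% over all genes tested. They were Ndufa5 of complex I (0.54), Suclg2 of the tricarboxylic acid cycle (0.37), and the mitochondrial ribosomal genes Mrps34 (0.47), Mrpl35 (0.33) and Mrpl11 (-0.48).

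Leaving out TMP195 replicate 1 turned the median of complex I to -0.03 and that of complexes II to V to -0.08. Without TMP195 replicate 3 the median of complexes II to V was 0.08, that of complex I also 0.08, and that of the tricarboxylic acid cycle 0.11. The 13 protein genes of the mitochondrial genome had a median of 0.18 with 10 higher, but list means ran from 13.65 to 15.08 with MYCi975 and from 13.39 to 15.25 with TMP195. Without TMP195 replicate 1 all 13 were lower, with a median of -0.40, and without TMP195 replicate 3 the median was 0.51 with 12 higher. Oma1, a protease of the inner mitochondrial membrane, differed by -0.59, and the chaperonin gene Hspd1 by 0.25.

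**Figure D4:**
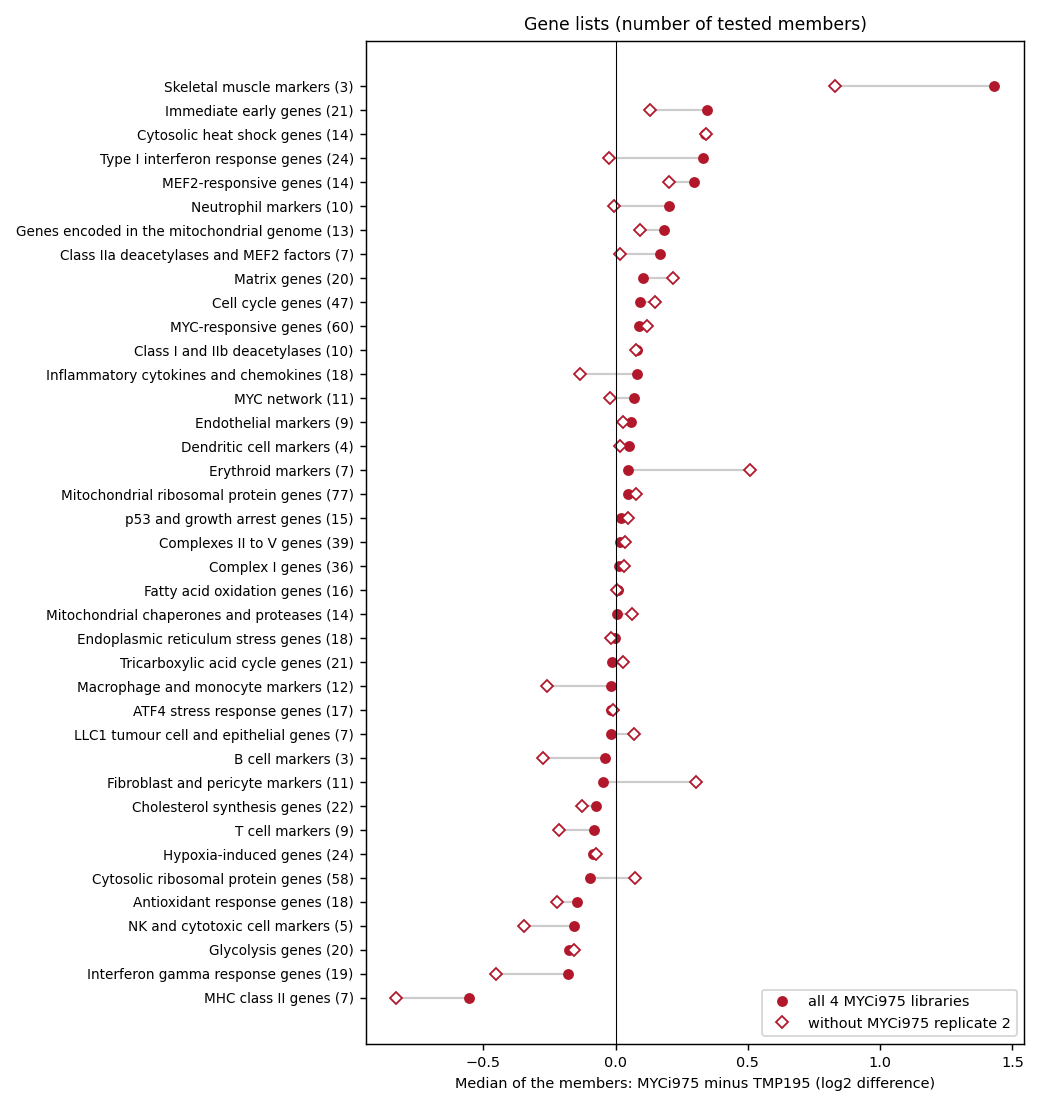
Median MYCi975 minus TMP195 difference (log2, x axis) over the tested members of each gene list with at least 3 of them, with the number in brackets. Filled points use all 4 MYCi975 libraries and open diamonds leave out replicate 2. The heat shock median stays at 0.34, while that of type I interferon genes moves to -0.03, against 0.33 with all libraries.

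Lists of activated and stromal cells depended on single libraries, some in direction and others only in size. In these bulk samples fewer cells of a type and less RNA per cell cannot be told apart. Immediate early genes had a median of 0.34 with 20 of 21 higher, led by the stress-induced factor Atf3. Atf3 was 9.54, 10.31, 8.70 and 8.67 with MYCi975, against 8.09, 8.19 and 8.52 with TMP195, a difference of 1.04, and 0.70 without MYCi975 replicate 2. The list means were 9.30, 9.85, 8.67 and 8.34 with MYCi975, against 8.67, 8.47 and 8.79 with TMP195. MYCi975 replicates 1 and 2 were high and replicate 4 was below all TMP195 libraries. Without replicate 2 the median was 0.13, and without replicate 4 it was 0.58. At an unadjusted p under 0.05 there were 10 members without replicate 4, where 5.43% of all genes tested had such a p. With all libraries there was 1, where 4.46% had one.

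MEF2-responsive genes, which class IIa deacetylases help to repress, had a median of 0.30 with 13 of 14 higher, and 0.20 without MYCi975 replicate 2. None had an unadjusted p under 0.05, and 5 had one without MYCi975 replicate 4 (5.43% of all genes tested), where the median was 0.45. The list shares Egr1 (0.70), Nr4a1, Jun, Klf4 and Klf6 with the immediate early list, so both are not separate observations. Klf2, an endothelial and leukocyte regulator, differed by 0.65 and Adamts1, a matrix protease gene, by -0.64.

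Immune lists moved with single libraries, among them MYCi975 replicate 2 and TMP195 replicate 3, which had the highest Ptprc of their groups. All 7 class II genes of antigen presentation were lower, with a median of -0.55. H2-Ab1 was 9.09, 9.79, 7.84 and 8.82 with MYCi975, against 8.81, 9.28 and 10.40 with TMP195, so the groups overlap. The class II median was -0.83 without MYCi975 replicate 2, -0.89 without TMP195 replicate 1, -0.15 without MYCi975 replicate 3 and -0.08 without TMP195 replicate 3. Interferon gamma response genes had a median of -0.18 with 18 of 19 lower, -0.45 with all 19 lower without MYCi975 replicate 2, and 0.15 with 4 of 19 lower without TMP195 replicate 3. Without MYCi975 replicate 3 it was 0.08. Type I interferon genes had a median of 0.33 with 21 of 24 higher, and -0.03 with 10 of 24 higher without MYCi975 replicate 2. How far leukocyte content moved these lists was not tested.

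**Figure D5:**
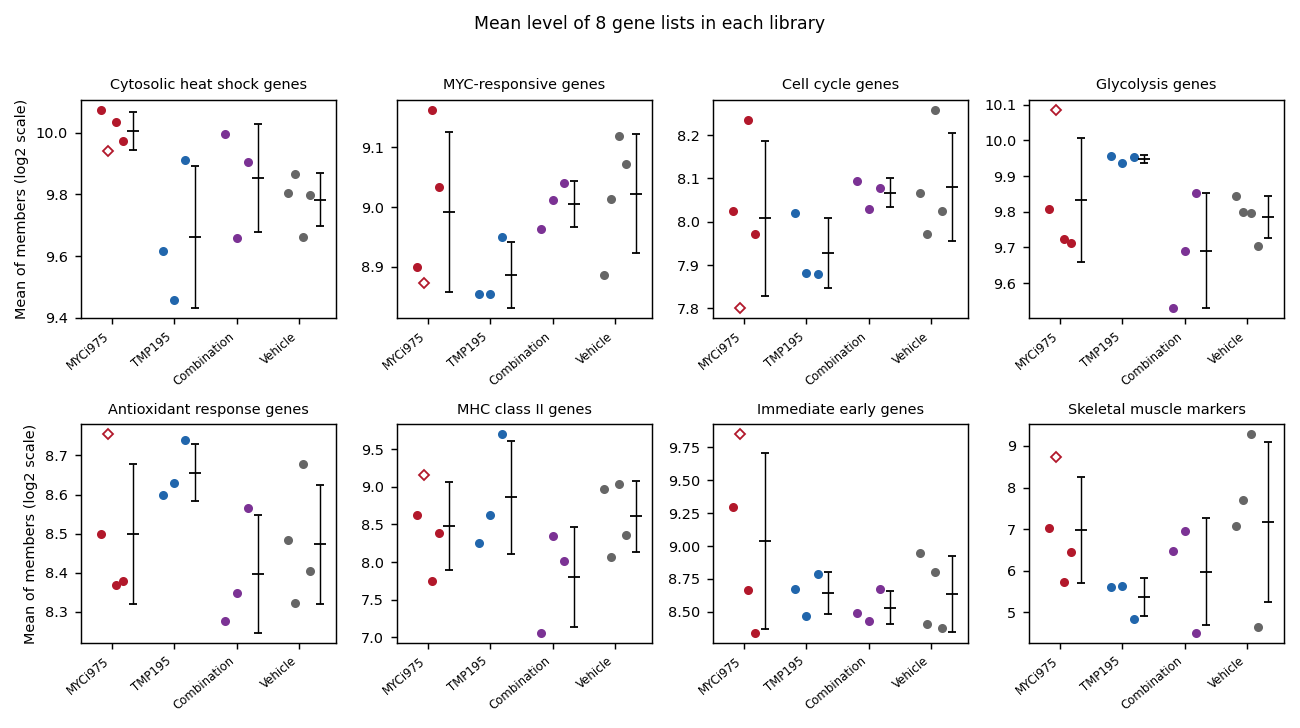
Mean log2-scale level of the tested members of 8 gene lists (y axis) in each library, with the mean ± SD of each group beside the points. The open diamond is MYCi975 replicate 2. Heat shock means are 9.94 to 10.08 with MYCi975, against 9.46 to 9.91 with TMP195, and vehicle runs from 9.66 to 9.87.

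Among other cell type markers, neutrophil markers had a median of 0.20 with 7 of 10 higher, -0.01 without MYCi975 replicate 2, 0.50 without MYCi975 replicate 3 and 0.0012 without TMP195 replicate 3. Macrophage and monocyte markers had -0.02 with 5 of 12 higher, -0.26 with 2 of 12 higher without MYCi975 replicate 2, and 0.32 with 11 of 12 higher without TMP195 replicate 3. T cell markers had -0.08 with 3 of 9 higher, -0.22 without MYCi975 replicate 2 and 0.06 without TMP195 replicate 3. NK and cytotoxic cell markers had -0.16 with 1 of 5 higher, -0.35 without MYCi975 replicate 2 and 0.23 without TMP195 replicate 3. Dendritic cell markers had 0.05 with 2 of 4 higher, and -0.08 without TMP195 replicate 1. B cell markers had -0.04 with 1 of 3 higher, -0.27 without MYCi975 replicate 2 and 0.07 without TMP195 replicate 3. None of these leukocyte lists therefore had a direction that held when each library was left out. Endothelial markers had a median of 0.06 with 5 of 9 higher. Fibroblast and pericyte markers had -0.05 with 5 of 11 higher, and 0.30 with 6 higher and 5 lower without MYCi975 replicate 2. In that fit 4 of the 11 were higher at an unadjusted p under 0.05 (background 2.57%), among them Fap (0.76) and Acta2 (0.65). None of the 11 had such a p with all libraries or without any other of the 7. Of the 7 keratinocyte markers 0 were tested, and of the 6 adipocyte markers 1.

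Transcripts of the sarcomere had higher means with MYCi975 and a wide spread between libraries. Ttn, the giant spring protein of the sarcomere, was 9.60, 11.57, 6.70 and 7.81 with MYCi975, against 6.81, 6.43 and 4.98 with TMP195, a difference of 2.85, and 1.96 without MYCi975 replicate 2. Neb, nebulin of the thin filament, was 7.21, 8.53, 6.66 and 6.34 with MYCi975, against 5.16, 5.10 and 4.90 with TMP195, a difference of 2.13, and 1.68 without MYCi975 replicate 2. The groups overlap for Ttn and not for Neb, and MYCi975 replicate 2 was the highest library for both. Only 3 of the 10 listed muscle markers passed the filter on low values, so their median of 1.43 (0.83 without MYCi975 replicate 2) is a description of those 3. Among them Myh4, a fast myosin heavy chain gene, differed by 1.43, so the median is the value of this gene. The 95% interval was -0.37 to 3.24 for Myh4 and 0.10 to 5.59 for Ttn. Myh4 averaged 4.80 with TMP195, near the lowest value, but was 8.03 in MYCi975 replicate 2 and 8.78 in vehicle replicate 3. The filter used the mean over all 14 libraries, so a gene high in only some of them could pass. The mean level of the 3 markers ran from 5.73 to 8.73 with MYCi975 and from 4.85 to 5.64 with TMP195, while vehicle ran from 4.65 to 9.28. The part of adjoining muscle in these values was not tested.

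The medians of the remaining lists with all libraries lay between -0.10 and 0.11. Cytosolic ribosomal protein genes had a median of -0.10 with 39 of 58 lower, but 0.07 without MYCi975 replicate 2 and 0.06 without TMP195 replicate 2. Endoplasmic reticulum stress genes had -0.0036 (9 of 18 higher), ATF4 stress response genes -0.02 (8 of 17 higher, Trib3 -0.52), and p53 and growth arrest genes 0.02 (9 of 15 higher, Gadd45a 0.48). Cholesterol synthesis genes had -0.07 (7 of 22 higher), fatty acid oxidation genes 0.01 (9 of 16 higher), and matrix genes 0.11 (12 of 20 higher, Postn 0.79). The matrix median was 0.22 without MYCi975 replicate 2, -0.08 without MYCi975 replicate 1 and -0.09 without TMP195 replicate 3. Inflammatory cytokines and chemokines had 0.08 (9 of 18 higher, Cxcl5 -0.56), but -0.13 with 4 of 18 higher without MYCi975 replicate 2, 0.30 without MYCi975 replicate 3 and 0.26 without MYCi975 replicate 4. Class I and IIb deacetylases with their corepressors had 0.08 (7 of 10 higher), but -0.0033 with 5 of 10 higher without TMP195 replicate 2. Erythroid markers had 0.05 with 4 of 7 higher, 0.51 with all 7 higher without MYCi975 replicate 2, and 0.60 without TMP195 replicate 2, but -0.32 with 0 of 7 higher without TMP195 replicate 1. Mitochondrial chaperones and proteases had 0.0044 (7 of 14 higher). LLC1 tumour cell and epithelial genes had -0.02 (3 of 7 higher), but 0.15 with 5 of 7 higher without TMP195 replicate 3.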

How the data were processed

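RNA of 14 LLC1 tumour libraries was sequenced from a stranded total RNA kit, per the labels' protocols. The authors deposited log2-scale, variance-stabilised values for 21152 genes in 1 table, as its name and header state. Salmon (version not stated) and hg38, a human build, appear in the submitters' processing notes, while the IDs are mouse Ensembl IDs. The build is therefore not settled and no coordinates are given for the values. Library depth is unknown. Symbols were found for 20264 IDs (95.8%).

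Genes with a mean over the 14 columns above 4.047 plus 1 were tested (13711). With limma 3.58.1 (R 4.3.3), linear models holding 1 mean per group used all 14 libraries (10 residual degrees of freedom, intensity trend). Tests were two-sided with Benjamini-Hochberg adjustment at 0.05, and the code was checked on simulated data. Leaving out a library kept the same genes. Named genes are the 10 with the smallest p in each direction, without predicted genes and pseudogenes, the 5 in each direction without MYCi975 replicate 2, up to 2 per list and the drug target genes. Some genes that this rule names are not reported here. Further list members, Neb and the heat shock motif were chosen after their values were seen. The 41 lists (28 of pathways, 13 of markers) come from textbook knowledge. Members and lists were chosen with earlier results of these data known, so lists carry no test. Ribosomal, haemoglobin, HSP70 and histocompatibility genes have near-identical copies and are uncertain as single genes. Upstream sequences come from RefSeq tables on GRCm38.p6.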

Additional observations from a re-analysis of the deposited data

Results flagged for a closer look

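Of 170 values examined in the 4 MYCi975 libraries (named genes, list means and the number of genes at the lowest value), 11 had 1 library far from the other 3 on Dixon's 95% criterion. Chance flags about 5% of such groups. In 7 of the 11 the library was MYCi975 replicate 2. Some genes examined, among them Mfap3l, were named in the fit without that library, a choice that favours such flags. Hbb-bt and the erythroid list mean are not separate observations.

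In MYCi975 replicate 2, Hsph1 was 9.79, against 10.42 to 10.45 in the other MYCi975 libraries. Mfap3l was 6.99 in it, against 6.18 to 6.25 in the others, Gadd45a was 8.69, against 8.23 to 8.29, and Nqo1 was 5.28, against 4.96 to 5.01. The haemoglobin gene Hbb-bt was 6.96 in replicate 2, against 9.39 to 9.52 in the others, and the erythroid list mean was 7.71, against 9.56 to 9.62. The number of genes at the lowest value was 2954 in replicate 2, against 1803 to 1981 in the others.

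In MYCi975 replicate 3, Ndrg1 was 10.06, against 10.47 to 10.54, and mt-Nd4l was 11.37, against 12.55 to 12.60. In MYCi975 replicate 4, Hspa1b was 9.11, against 9.63 to 9.73, and Hdac9 was 5.51, against 6.03 to 6.11.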

How the results depend on the processing

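Under 24 alternatives no gene was called in 23, and 1 gene, Chil3 (1.19), with Ptprc as a covariate. The count at an unadjusted p under 0.05 was 612. It was 987 with no filter, where 21152 genes were tested (4.67%), and 937 with Ptprc as a covariate. Leaving out 1 library gave 342 to 1049, the lowest without TMP195 replicate 2 and the highest without TMP195 replicate 3. The cause was not tested. With the replicate number as a block 0 genes were called and 704 had an unadjusted p under 0.05. Libraries with the same number did not deviate together (correlations -0.0026, -0.20 and -0.30). None of MYCi975 replicates 1 to 3 correlated best with its own number. These correlations gave no sign of a pairing by number, but they are too few to exclude it.

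Of 129 named genes 122 kept their direction throughout. The others were Ptprc, Pax5, Hbb-bt, Eomes, Myc, Siglech and mt-Nd4l. Ptprc was -0.00099 with median centring, -0.035 with quantile normalisation, -0.039 with library weights, and -0.41 to 0.30 over the fits that left out 1 library. Pax5 was 0.0097 with library weights and -0.16 to 0.074 over such fits. Over the same fits Hbb-bt ran from -0.18 to 0.82, Eomes from -0.12 to 0.29, Myc from -0.0038 to 0.18, Siglech from -0.012 to 0.31 and mt-Nd4l from -0.33 to 0.60. The causes were not tested. Of 957 list medians 5 moved by more than the spread between replicates, among them that of muscle markers to 2.85 with the stricter filter, which left fewer of them. Unknown depth limits what can be said of genes near the lowest value.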
